A study of Mus musculus with 12 samples.

Results

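The 9 genes described here are the core pluripotency factors Pou5f1, which encodes Oct4, and Sox2, with 7 genes grouped with them. The 7 are Sall4, Sall1, Sall3, Zscan10, Utf1, Rnf125 and Zfp281. All 9 were taken by name, each through its single-symbol probe set, from 19938 genes measured on Affymetrix Mouse Gene 1.0 ST arrays. Each of the 9 had exactly 1 such probe set and 0 probe sets shared with another symbol, so no averaging over probe sets entered their values. The cells were Esrrb_R mouse embryonic stem cells, an Esrrb rescue clone of the AINV15 line. In all 12 arrays these cells carried an shRNA against endogenous Esrrb and a doxycycline (Dox)-dependent, GFP-tagged Esrrb that the shRNA does not reach. The cells of day 0 were kept in serum and Lif with 1 µg/ml Dox, and the cells of days 1, 3 and 5 had been without Dox for that many days, with 3 biological replicates a day. The line is 1 clone, and no array measured Dox removal or culture time in cells that keep Esrrb, so these cannot be told apart from the loss of Esrrb.

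Oct4 is a POU-domain protein and Sox2 an HMG-box protein. They bind next to each other on composite sites in the enhancers of many pluripotency genes, their own included, and so hold up their own transcription. Sall4 and Sall1 are spalt-like zinc finger proteins that associate with Oct4 and with the NuRD nucleosome remodelling and deacetylase complex. In embryonic stem cells the naive factors, such as Nanog, Klf4 and Tbx3, form a further layer around this core, and Esrrb, an orphan nuclear receptor, binds with both. The comparison over the days asks which of the core genes lost transcript after Esrrb was withdrawn, and when.

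Values are log2 signals, on which a difference of 1 is a 2-fold difference. Array signals of different genes cannot be ranked, so levels are compared only within a gene. Array medians lay between 7.27 and 7.35, and the lowest correlation of any pair of arrays over genes was 0.979. The Esrrb probe set, the check of the labels, averaged 11.59 ± 0.05 on day 0, 9.13 ± 0.04 on day 1, 8.20 ± 0.14 on day 3 and 8.19 ± 0.08 on day 5 (SD, n = 3 each). Esrrb signal was at 18.2% of day 0 on day 1 and at 9.57% on day 3, and day 5 differed from day 3 by a log2 change of -0.01 (95% interval -0.17 to 0.14, adjusted p = 0.92). The paper reports endogenous Esrrb mRNA as undetectable under the shRNA. The sources used here do not say whether this probe set reads the endogenous transcript, the Dox-dependent one or both. The percentages are therefore those of the probe set and not of either transcript.

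The 9 genes were grouped as core factors with a slow or absent response beside the naive factors, so how late they moved is a description of the choice. On day 1, when Esrrb had already lost most of its signal, 1 of 9 was called lower (Sox2) and 0 higher, at an adjusted p under 0.05 in a limma fit over all genes. The background on day 1 was 4.48 percent of all genes called lower and 6.45 percent called higher. On day 3, 4 of 9 were lower (Sox2, Sall1, Utf1 and Rnf125) and 0 higher, against 13.1 percent of all genes lower and 13.5 percent higher. On day 5, 6 of 9 were lower, Pou5f1 and Zscan10 having joined, and 0 higher, against 17.6 percent of all genes lower and 17.4 percent higher. The median log2 change of the 9 genes was 0.00 on day 1, -0.18 on day 3 and -0.49 on day 5, where the median over all genes was 0.01, 0.00 and -0.02. Sall4, Sall3 and Zfp281 passed the test on none of the 3 days. All 3 arrays lay below all 3 of day 0 for 2 of the 9 genes on day 1, 6 on day 3 and 6 on day 5, where this held for 12.6, 19.4 and 22.1 percent of all genes. Cells were measured in bulk, so fewer cells that make a transcript and less of it per cell cannot be told apart.

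**Figure D1:**
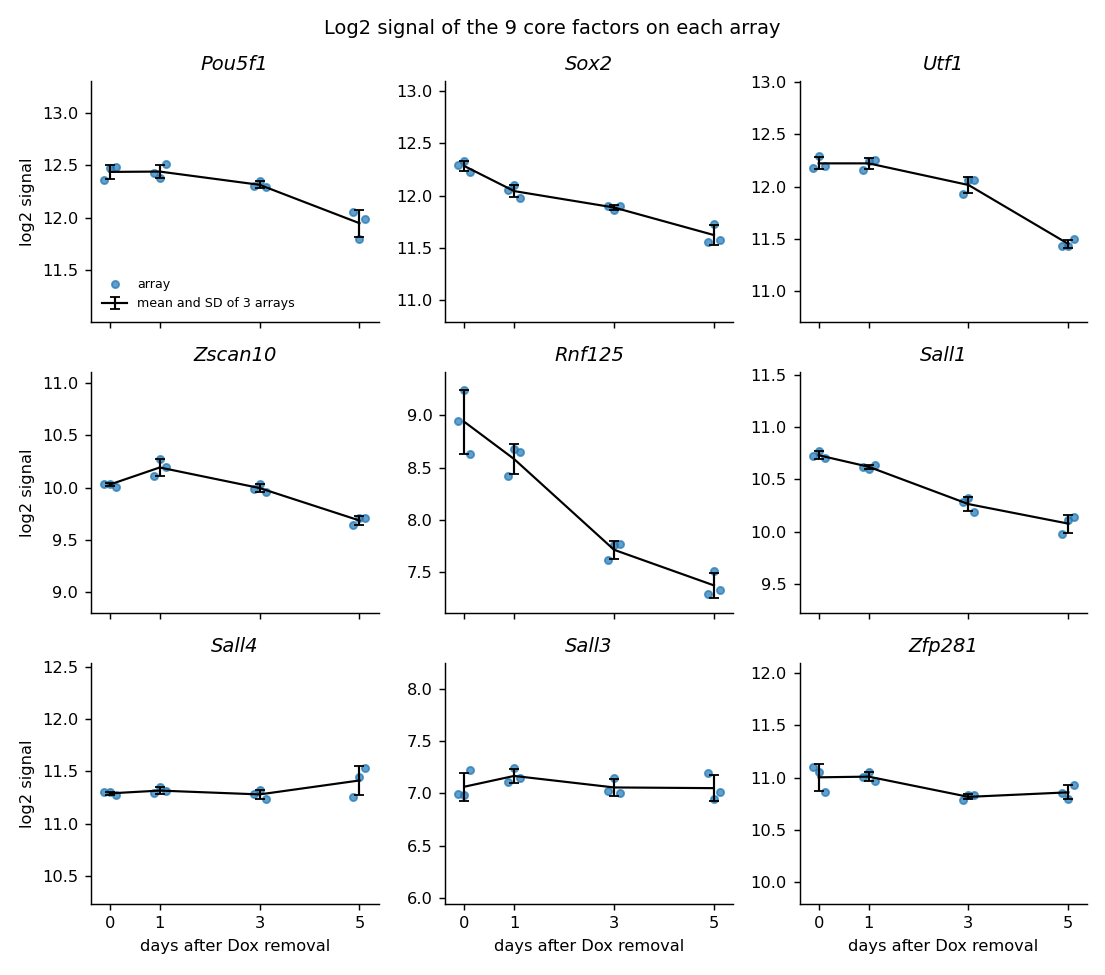
Log2 signal (vertical axis, each panel spanning the same range) of the 9 core genes by days after Dox removal (horizontal axis), with a point for each of 12 arrays and the mean and SD of 3 arrays a day as a line. Rnf125 falls the furthest, Pou5f1, Sox2, Utf1, Zscan10 and Sall1 end below their day 0 arrays, and Sall4, Sall3 and Zfp281 stay near theirs.

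Pou5f1 passed the test as lower on day 5 alone. Its log2 signals were 12.36, 12.47 and 12.48 on day 0, 12.43, 12.38 and 12.51 on day 1, 12.30, 12.35 and 12.29 on day 3, and 12.05, 11.80 and 11.99 on day 5. The arrays of days 0 and 1 overlap, those of day 3 lie just under the lowest array of day 0, and those of day 5 lie well below all others. The log2 change against day 0 was 0.00 on day 1 (adjusted p = 0.98), -0.12 on day 3 (adjusted p = 0.25) and -0.49 on day 5 (SE 0.07, adjusted p = 9.6e-05), which leaves 71.1% of the day 0 signal on day 5 (95% interval 64.1 to 79%). Between days 5 and 3 alone the log2 change was -0.37 (adjusted p = 0.0016). The interval for day 1 runs from 90.3 to 111% of day 0, so a larger fall by then lies outside it.

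Sox2 passed the test as lower on all 3 days. Its log2 signals were 12.29, 12.33 and 12.23 on day 0, 12.05, 12.10 and 11.98 on day 1, 11.90, 11.86 and 11.90 on day 3, and 11.56, 11.73 and 11.58 on day 5. Every array of a later day lies below every array of the days before it. The log2 change against day 0 was -0.23 on day 1 (SE 0.06, adjusted p = 0.025), -0.39 on day 3 (adjusted p = 3e-04) and -0.66 on day 5 (adjusted p = 2e-06), and Sox2 signal was 85, 76.2 and 63.5% of day 0 on days 1, 3 and 5. The call on day 1 rests on few arrays: without replicate 1 or 2 of day 0 its adjusted p was 0.074 or 0.083, and without replicate 1 or 3 of day 1 it was 0.073 or 0.11. Day 3 did not differ from day 1 past the threshold (adjusted p = 0.086), while day 5 was below day 3 (log2 change -0.26, adjusted p = 0.0057).

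Utf1 and Zscan10 are transcribed in embryonic stem cells under Oct4 and Sox2. Utf1 is a chromatin-bound protein and Zscan10 a SCAN-domain zinc finger protein. Utf1 had the largest fall of the 9 genes between days 3 and 5. Its log2 signals were 12.18, 12.29 and 12.20 on day 0, 12.16, 12.25 and 12.26 on day 1, 11.93, 12.06 and 12.06 on day 3, and 11.43, 11.43 and 11.50 on day 5. The arrays of days 0 and 1 are interleaved, those of day 3 lie a little below them, and those of day 5 lie apart. Utf1 had a log2 change against day 0 of 0.00 on day 1, -0.21 on day 3 (SE 0.06, adjusted p = 0.018) and -0.77 on day 5 (adjusted p = 3.6e-07, 58.6% of the day 0 signal), and -0.56 between days 5 and 3 (adjusted p = 1.6e-05). The call of Utf1 on day 3 was lost without replicate 2 of day 0 (adjusted p = 0.07) or replicate 1 of day 3 (adjusted p = 0.078), and with only the arrays of days 3 and 0 in the fit (adjusted p = 0.052).

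Zscan10 took another course. Its log2 signals were 10.04, 10.04 and 10.01 on day 0, 10.11, 10.27 and 10.20 on day 1, 9.99, 10.04 and 9.96 on day 3, and 9.64, 9.71 and 9.71 on day 5. All 3 arrays of day 1 lie above day 0, those of day 3 overlap it, and those of day 5 lie below it. The log2 change of Zscan10 against day 0 was 0.16 on day 1 (SE 0.05, adjusted p = 0.084), -0.03 on day 3 (adjusted p = 0.72) and -0.34 on day 5 (adjusted p = 0.00025, 78.8% of the day 0 signal). Day 5 was below day 1 by 0.50 on the log2 scale (log2 change -0.50, adjusted p = 1.1e-05).

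To show what lies just before the start sites of these 4 genes, 250 bases upstream of each are printed from the RefSeq promoter table of build GRCm38.p6, 5′ to 3′ on the strand of the gene. Capitals mark matches on either strand to 5 motifs. They are the GC box GGGCGG, the box of NF-Y spelled CCAAT, the core of sites bound by Esrrb and other nuclear receptors (AGGTCA), the octamer of POU proteins (ATGCAAAT) and a core of Sox sites (CATTGTT). All 4 genes lie on the plus strand, Pou5f1 at chr17:35505782-35506031, Sox2 at chr3:34649745-34649994, Utf1 at chr7:139943606-139943855 and Zscan10 at chr17:23600576-23600825.
Pou5f1: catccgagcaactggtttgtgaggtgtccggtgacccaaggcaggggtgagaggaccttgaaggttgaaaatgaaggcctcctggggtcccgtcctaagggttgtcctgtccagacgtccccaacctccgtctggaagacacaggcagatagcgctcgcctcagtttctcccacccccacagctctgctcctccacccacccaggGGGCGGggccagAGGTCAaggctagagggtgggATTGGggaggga
Sox2: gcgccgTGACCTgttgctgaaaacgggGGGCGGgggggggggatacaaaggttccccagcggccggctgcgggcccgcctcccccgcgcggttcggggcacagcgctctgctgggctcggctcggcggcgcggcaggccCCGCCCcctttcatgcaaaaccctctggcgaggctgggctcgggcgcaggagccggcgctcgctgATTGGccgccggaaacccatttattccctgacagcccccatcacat
Utf1: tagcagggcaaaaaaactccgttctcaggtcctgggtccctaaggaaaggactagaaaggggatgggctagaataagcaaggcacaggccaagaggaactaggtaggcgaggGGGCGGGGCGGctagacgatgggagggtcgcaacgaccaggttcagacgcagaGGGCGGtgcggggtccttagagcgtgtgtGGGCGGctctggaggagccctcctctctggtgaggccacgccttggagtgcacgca
Zscan10: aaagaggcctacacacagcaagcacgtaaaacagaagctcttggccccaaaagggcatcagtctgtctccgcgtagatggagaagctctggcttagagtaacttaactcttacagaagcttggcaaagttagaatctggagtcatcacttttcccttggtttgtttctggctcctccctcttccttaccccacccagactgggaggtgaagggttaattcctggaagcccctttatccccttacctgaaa
The Pou5f1 window, at the first of 2 annotated start sites, holds a GC box from 45 to 40 bases before the start, AGGTCA from 33 to 28 and CCAAT on the opposite strand from 12 to 8. The window of the second Pou5f1 start site, not printed, holds CCAAT from 168 to 164 and CATTGTT on the opposite strand from 159 to 153. The Sox2 window holds 2 GC boxes, CCAAT from 46 to 42 on the opposite strand, and AGGTCA on the opposite strand near its far end, from 244 to 239. Utf1 has 4 GC boxes, of which the first and the second overlap by their shared G, and Zscan10 has none of the 5 motifs. Of 32851 promoter windows of this length, 32.7% hold GGGCGG, 33.8% CCAAT, 14.0% AGGTCA, 1.6% ATGCAAAT and 3.29% CATTGTT, counting both strands. GC content is 62.0% in the Pou5f1 window, 72.0% in Sox2, 61.6% in Utf1 and 48.8% in Zscan10, with 8, 27, 14 and 3 CpG, where the median of all windows is 52.4% and 6 CpG. The matches are letters in these windows and do not show binding, and the known distal enhancers of these genes lie outside them. The table matched 6 of the 9 genes, with Sall1 and Zfp281 besides these 4.

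Rnf125, a RING-type ubiquitin ligase known in human cells for acting on the RNA sensor RIG-I, fell the furthest of the 9 genes. Its log2 signals were 8.95, 9.24 and 8.63 on day 0, 8.42, 8.68 and 8.65 on day 1, 7.62, 7.76 and 7.77 on day 3, and 7.29, 7.51 and 7.33 on day 5. The arrays of day 1 overlap the lowest array of day 0, and the arrays of days 3 and 5 lie below all of them. Against day 0, the log2 change of Rnf125 was -0.36 on day 1 (SE 0.13, adjusted p = 0.096), -1.22 on day 3 (adjusted p = 1.2e-05) and -1.56 on day 5 (adjusted p = 6.8e-07), which leaves 42.8% of the day 0 signal on day 3 and 33.8% on day 5 (95% interval 27.9 to 40.9%). The next lowest of the 9 genes on day 5 was Utf1, at 58.6% of its day 0 signal. The spread of its 3 arrays of day 0 is the widest among the 9 genes on any day, and without replicate 3 of day 0 Rnf125 passed the test on day 1 (log2 change -0.51, adjusted p = 0.012), while without replicate 2 of day 0 the change was -0.21 (adjusted p = 0.3). Day 3 was below day 1 (log2 change -0.86, adjusted p = 0.00041). Day 5 was 0.34 below day 3 on the log2 scale without passing the test (log2 change -0.34, adjusted p = 0.07). This change passed in 7 of 21 alternative settings, among them the fits without replicate 2 of day 0 (adjusted p = 0.024) or replicate 3 of day 0 (adjusted p = 0.022).

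The 4 spalt-like genes did not have the same calls. Sall1 fell, Sall4 and Sall3 did not pass the test, and Sall2, which is no member of the 9 and was followed after its values were seen, rose. Sall1 had log2 signals of 10.72, 10.77 and 10.70 on day 0, 10.62, 10.60 and 10.64 on day 1, 10.28, 10.32 and 10.19 on day 3, and 9.98, 10.11 and 10.14 on day 5. The arrays of each day lie below those of the day before, by little on day 1. The log2 change of Sall1 against day 0 was -0.11 on day 1 (adjusted p = 0.29), -0.47 on day 3 (SE 0.06, adjusted p = 6.3e-05) and -0.65 on day 5 (adjusted p = 1.8e-06, 63.7% of the day 0 signal). Most of this fall lay between days 1 and 3 (log2 change -0.36, adjusted p = 0.00092), and the further change of -0.18 between days 5 and 3 (adjusted p = 0.036) lost its call without any 1 of 6 arrays: replicates 1, 2 and 3 of day 1 (adjusted p = 0.054, 0.051 and 0.05), replicates 1 and 2 of day 3 (0.091 and 0.14) and replicate 1 of day 5 (0.13).

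Sall4, the relative with the best known role in holding embryonic stem cells undifferentiated, had log2 signals of 11.30, 11.30 and 11.27 on day 0, 11.29, 11.35 and 11.31 on day 1, 11.28, 11.32 and 11.24 on day 3, and 11.26, 11.45 and 11.53 on day 5. The arrays of every later day overlap those of day 0. The log2 change of Sall4 on day 5 was 0.12 (95% interval -0.02 to 0.27, adjusted p = 0.18), an interval that holds 98.6 to 120% of the day 0 signal and so leaves out a fall of the size seen for Sall1. Replicate 1 of day 5 was the lowest of that day, and without it Sall4 passed the test as higher (log2 change 0.20, adjusted p = 0.018), while without replicate 3, the highest, the change was 0.06 (adjusted p = 0.54). Sall3 had log2 signals of 6.99, 6.98 and 7.22 on day 0, 7.11, 7.24 and 7.15 on day 1, 7.02, 7.15 and 7.0 on day 3, and 7.19, 6.95 and 7.01 on day 5. All of them lay below the array medians, which ran from 7.27 to 7.35. The log2 change of Sall3 on day 5 was -0.01 (95% interval -0.19 to 0.17, adjusted p = 0.92). Its arrays overlap on all days.

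Sall2 had log2 signals of 7.01, 6.73 and 6.77 on day 0, 7.56, 7.64 and 7.69 on day 1, 8.06, 8.15 and 7.94 on day 3, and 7.58, 7.43 and 7.69 on day 5. All arrays without Dox lie above all arrays of day 0, and day 3 is the highest. Against day 0, Sall2 had a log2 change of 0.79 on day 1 (adjusted p = 8.8e-05), 1.21 on day 3 (adjusted p = 4.8e-07) and 0.73 on day 5 (adjusted p = 2.3e-05), and day 5 was below day 3 (log2 change -0.48, adjusted p = 0.0012). Thus, on day 1 Sall2 was at 173% of its own day 0 signal, where Sall1 was at 92.6% and Sall4 at 102% of theirs. The day 0 arrays of Sall2 lay below the array medians (7.27 to 7.35), while those of Sall1 and Sall4 lay above them.

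Zfp281, a zinc finger protein that binds Nanog regulatory DNA and represses it with NuRD in mouse embryonic stem cells, changed by little. Its log2 signals were 11.10, 11.05 and 10.86 on day 0, 11.01, 11.05 and 10.97 on day 1, 10.79, 10.83 and 10.83 on day 3, and 10.85, 10.80 and 10.93 on day 5. The arrays of day 3 lie just under the lowest of day 0 and those of day 5 overlap it. Zfp281 had a log2 change against day 0 of 0.01 on day 1 (adjusted p = 0.96), -0.18 on day 3 (SE 0.07, adjusted p = 0.057) and -0.14 on day 5 (adjusted p = 0.11). Of 21 alternative settings, Zfp281 passed the test in 5 on day 3 and in 2 on day 5, so its lack of a call lies near the threshold. Replicate 3 of day 0 was lower than replicates 1 and 2, and without it Zfp281 passed the test on day 3 (log2 change -0.25, adjusted p = 0.0078) and on day 5 (log2 change -0.21, adjusted p = 0.015), while without replicate 1 of day 0 the changes were -0.14 (adjusted p = 0.21) and -0.10 (adjusted p = 0.35).

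**Figure D2:**
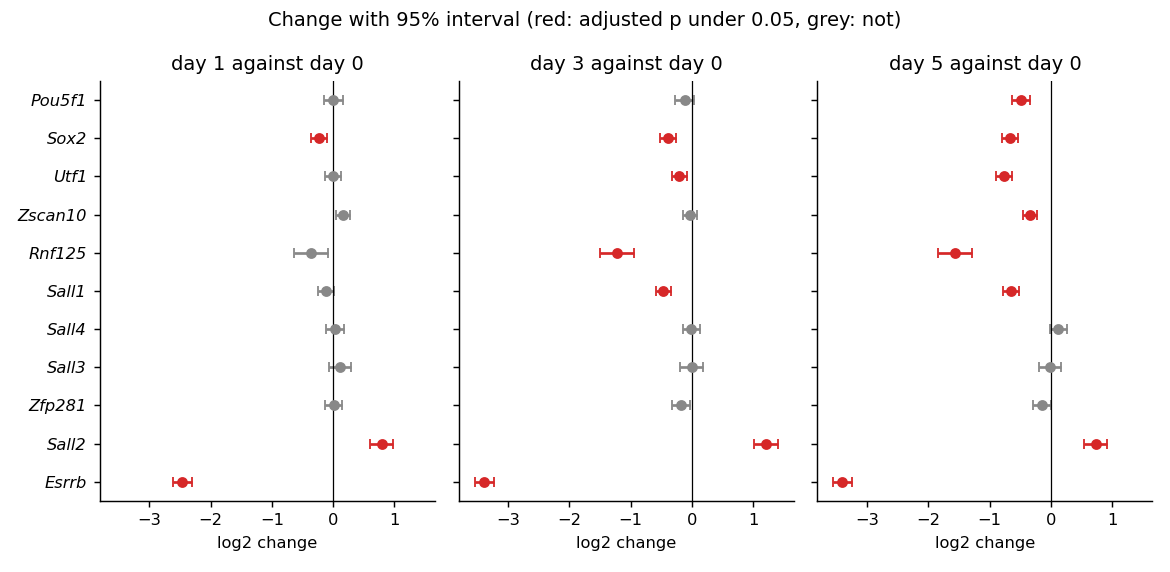
Log2 change against day 0 (horizontal axis) of the 9 core genes, Sall2 and Esrrb on days 1, 3 and 5 (panels), with 95% intervals from the limma fit, in red where the adjusted p was under 0.05. On day 1 only Sox2, Sall2 and Esrrb are red, on day 5 Sall4, Sall3 and Zfp281 are the 3 in grey, and the change of Esrrb on day 5, -3.40, exceeds that of Rnf125, -1.56.

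The time at which the falling genes moved differed among them by value. By day 3, 78.2% of the log2 change of day 5 had been reached by Rnf125, 71.7% by Sall1, 59.8% by Sox2, 27.0% by Utf1, 24.6% by Pou5f1 and 10.0% by Zscan10. The intervals of days 1 to 3 and days 3 to 5 are equally long and allow the steps to be compared. Of all 19938 genes, 2317 were lower and 1834 higher between days 3 and 1, 20.8 percent in either direction. Of the 9 core genes, 4 were lower (Sall1, Zscan10, Utf1 and Rnf125) and 0 higher. Leaving out replicate 2 or 3 of day 1 or replicate 1 of day 3 left 2 of these calls, with Zscan10 at adjusted p = 0.11, 0.066 and 0.057 and Utf1 at 0.079, 0.083 and 0.09. Zscan10 was also lost without replicate 3 of day 3 (adjusted p = 0.085). Between days 5 and 3, 5 of the 9 were lower (Pou5f1, Sox2, Sall1, Zscan10 and Utf1) and 0 higher. Of all genes, 2442 were lower and 2601 higher, 25.3 percent in either direction. The difference of the steps itself, days 3 to 5 minus days 1 to 3, passed the test for Utf1 alone of the 9, whose later step was the larger (log2 difference -0.35, SE 0.10, adjusted p = 0.028, where 7.99 percent of all genes passed in this direction and 10.2 percent in the other). The call for Utf1 was lost without replicate 1 of day 1 (adjusted p = 0.066), replicate 2 of day 3 (0.13) or replicate 3 of day 3 (0.13), and with arrays centred on their medians (0.071). For Pou5f1 the difference was -0.25 (adjusted p = 0.2) and for Rnf125 0.52 (adjusted p = 0.13). The difference for Rnf125 passed the test in 2 of 21 alternative settings, among them the fit without replicate 3 of day 0 (adjusted p = 0.049).

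The naive factors are set beside the core genes as a description, since the 9 genes were chosen for a slower response than theirs. The 12 naive factors were Nanog, Klf2, Klf4, Klf5, Tbx3, Tfcp2l1, Zfp42, Nr0b1, Prdm14, Nr5a2, Tcl1 and Gbx2. Of these, 9 were lower and 1 higher on day 1, and all 12 were lower on days 3 and 5. The background on day 1 was 4.48 percent of all genes lower and 6.45 percent higher. For days 3 and 5 it was 13.1 and 17.6 percent lower. On day 3 Klf2 kept its call in 18 of 21 alternative settings. Among those that lost it were the fits without replicate 3 of day 0 (adjusted p = 0.078) or replicate 3 of day 3 (adjusted p = 0.11). On day 1 Nr5a2 and Prdm14 each kept theirs in 15 of 21. Among those that lost it were the fits without replicate 1 or 2 of day 0 or replicate 1 or 3 of day 1 (adjusted p between 0.056 and 0.11). The median log2 change of the 12 naive factors was -0.47 on day 1, -1.13 on day 3 and -1.24 on day 5. Nr0b1, which encodes the Oct4-binding repressor Dax1, had a log2 change of -1.0 on day 1, -2.84 on day 3 and -3.05 on day 5. Tbx3, a T-box factor downstream of Lif, had -0.69, -1.52 and -1.56, and Nanog, named after its values were seen, had -0.80, -0.62 and -0.25. On day 3 all 12 naive factors had a lower log2 change than Pou5f1, Sall4, Sall3, Zscan10, Utf1 and Zfp281, 11 of 12 a lower one than Sox2 and Sall1, and 6 of 12 a lower one than Rnf125. On day 5 the order was less uniform: 7 of 12 had a lower change than Pou5f1, Sox2, Sall1 and Utf1, 9 than Zscan10, and 4 than Rnf125. These counts compare fitted changes that share the day 0 arrays, and the differences between genes were not tested.

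The comparison of steps was chosen after values were seen, and no test was made between the lists. Since the 9 genes were chosen for a slower response than the naive factors, a difference in timing between the lists describes that choice. For 10 of 12 naive factors the step of days 3 to 5 minus that of days 1 to 3 was above 0 and passed the test, against 0 of 9 core genes and 10.2 percent of all genes, with a median difference of 0.78 for the naive factors and 0.10 for the core genes. Between days 5 and 3, 2 naive factors were lower and 4 higher, where 2442 of 19938 genes were lower and 2601 higher. The median of the 12 was 0.02, where the median of the core genes was -0.26.

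**Figure D3:**
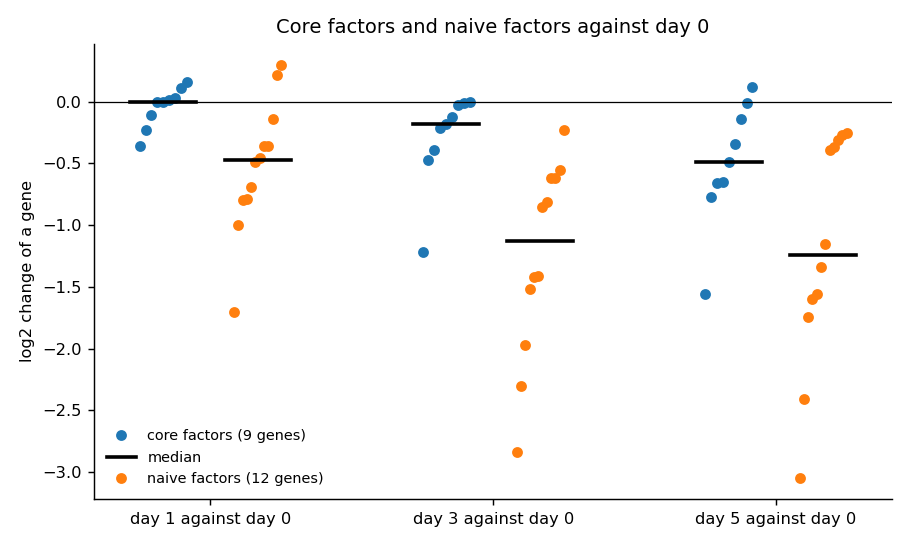
Log2 change against day 0 (vertical axis) of 9 core genes (blue) and 12 naive factors (orange) on days 1, 3 and 5, 1 point a gene, with the median of each list as a bar. The medians are 0.00 and -0.47 on day 1, -0.18 and -1.13 on day 3, and -0.49 and -1.24 on day 5, and the lists overlap on every day.

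**Figure D4:**
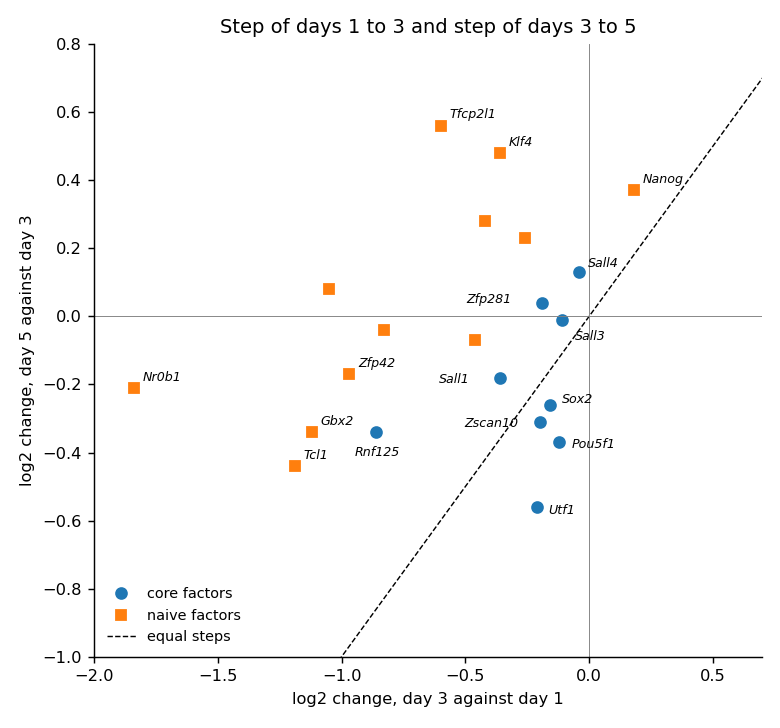
Log2 change of day 3 against day 1 (horizontal axis) and of day 5 against day 3 (vertical axis) for the core genes (circles) and the naive factors (squares), with a dashed line where the steps are equal. Every naive factor lies above the line, and Pou5f1, Sox2, Utf1 and Zscan10 lie below it, of which only Utf1 passed the test of the difference.

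Among genes listed as targets or network neighbours of Oct4 and Sox2, calls were made from day 1 on and most were lower by day 5. The paper's network around Oct4, which holds Dppa2, Dppa4, Zscan10 and Rnf125, was built in part from mRNA changes of this time course. The counts below are therefore a description and no support for that network. Of 16 targets and neighbours with a single-symbol probe set, 3 were lower and 2 higher on day 1, where 4.48 percent of all genes were lower and 6.45 percent higher. On day 3, 11 were lower and 2 higher (13.1 and 13.5 percent of all genes), and on day 5, 14 were lower and 2 higher (17.6 and 17.4 percent). The median log2 changes were 0.01, -0.30 and -0.55, and the single changes on day 1 ran from -0.80 to 1.28. The lowest of these, -0.80, equals the change of Nanog, so this list and the 12 naive factors may share that gene. The DNA-binding proteins Dppa2 and Dppa4, which act as a heterodimer at bivalent promoters, had log2 changes on day 5 of -1.94 (SE 0.098, adjusted p = 1.2e-08) and -1.47 (SE 0.085, adjusted p = 3.7e-08), with -0.06 and 0.09 on day 1. Gdf3, a growth factor of the TGF-beta family, had -0.93 on day 5. Dppa5a, an RNA-binding protein, had -0.25 on day 1 (adjusted p = 0.04) and -1.07 on day 5. The genes called higher on day 5 were Lin28a, which blocks let-7 maturation (log2 change 0.40, adjusted p = 0.00012), and Lefty1, a Nodal inhibitor (0.34, adjusted p = 0.025). Both were already higher on day 1, Lin28a by 0.38 (adjusted p = 0.0011) and Lefty1 by 1.28 (adjusted p = 9.2e-06), its highest day. Between days 3 and 1, 9 of the 16 were lower and 1 higher, where 2317 of 19938 genes were lower and 1834 higher. Between days 5 and 3, 11 of the 16 were lower and 1 higher, where 2442 of all genes were lower and 2601 higher.

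Of 11 subunits of NuRD, the complex that Sall4, Sall1 and Zfp281 bind, 0 were lower and 3 higher on day 5, where 17.6 percent of all genes were lower and 17.4 percent higher: Mta1 (log2 change 0.67, adjusted p = 2.6e-06), the histone-binding protein Rbbp7 (0.32, adjusted p = 0.00017) and the remodelling ATPase Chd4 (0.19, adjusted p = 0.019). The median of the 11 was 0.02. Against day 1, 2 of the 11 were lower and 2 higher on day 5, where 3490 of 19938 genes were lower and 3094 higher. On day 3 against day 1, 1 of the 11 was lower and 1 higher, where 2317 of all genes were lower and 1834 higher. Mta1 was already higher on day 3 (log2 change 0.55, adjusted p = 3e-05).

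For 3 core genes, the genes with the most similar course were found among the 6979 other genes called on day 5, by the root mean square difference of the log2 changes on days 1, 3 and 5. For Pou5f1 they were Taf1d, Zfp958 and Coq8a (differences of 0.010, 0.011 and 0.013), and for Sox2 Lipe, Radx and Lmbr1 (0.019, 0.023 and 0.030). For Rnf125 they were Zfp459, Zfp229 and Adgrg6 (0.059, 0.059 and 0.064). Within a difference of 0.1 lay 262 genes for Pou5f1, 100 for Sox2 and 4 for Rnf125. Courses with larger changes have fewer genes near them at a fixed distance, so these counts do not rank how common the courses are.

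Markers of other cell types are given beside the share of all genes, which was 17.4 percent higher and 17.6 percent lower on day 5, and 13.5 percent higher and 13.1 percent lower on day 3. Of 7 primitive endoderm markers, 5 were higher and 1 lower on day 5, and their mean log2 signal per array lay between 9.85 and 10.12 on day 5, against 9.55 and 9.58 on day 0. Among the higher were Gata4 (log2 change 0.59), Sox17 (0.80), Sox7 (0.84) and Foxa2 (0.73), and the lower was Dab2 (-0.27, adjusted p = 0.0032). Of 8 trophectoderm markers, 3 were lower on day 3, among them Eomes (-0.71) and Tfap2c (-0.58), and 1 was higher on day 5 (Gata3, 0.74), with list means between 7.22 and 7.29 on day 0, 7.17 and 7.23 on day 1, 6.98 and 7.03 on day 3, and 7.42 and 7.47 on day 5. Of 8 mesendoderm markers, 4 were higher on day 5 (Foxa2, Wnt3, Mixl1 and Gsc). The list means of the 8 lay between 6.85 and 7.23 on day 5 and between 6.63 and 6.77 on day 0. The lists share genes: Foxa2 is also counted as a primitive endoderm marker, and Eomes is in both the trophectoderm and the mesendoderm list. Of 7 neuroectoderm markers, 1 was higher (Nes, 2.10) and 2 lower (Neurod1, -2.23, and Pax6, -0.78), with list means between 6.92 and 6.93 on day 5 and between 7.0 and 7.05 on day 0. Of 13 fibroblast markers, relevant because the line is kept on feeder fibroblasts between experiments, 1 was higher and 8 lower on day 3, and 1 higher and 2 lower on day 5, with list means between 7.67 and 7.77 on day 0, 7.65 and 7.68 on day 1, 7.22 and 7.27 on day 3, and 7.51 and 7.65 on day 5. An array signal has no value at which a marker is at 0, and the part of these cells in the changes of the core genes was not tested.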

How the data were processed

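Affymetrix Mouse Gene 1.0 ST arrays, 12 in all and 3 for each of days 0, 1, 3 and 5, measured messenger RNA of Esrrb_R mouse embryonic stem cells. The authors normalized them with the Robust Multichip Average in Affymetrix Expression Console (version not given in the sources used here) and deposited a log2 value for every probe set on every array, from 1.61 to 14.69. Robust Multichip Average fits all arrays together and draws low signals toward a floor, so changes of dim genes are understated. Of 35557 probe sets, 21789 had 1 gene symbol in the platform annotation, 1621 several and 12147 none. Single-symbol probe sets were averaged per gene, which gave 19938 genes.

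The tests used limma 3.58.1 under R 4.3.3 (functions lmFit and eBayes, 1 mean per day, 8 residual and 4.63 prior degrees of freedom). Benjamini-Hochberg adjustment ran over all 19938 genes, and an adjusted p under 0.05 counted as a call. Standard errors and 95% intervals come from this fit, and percentages of day 0 are antilogs of its log2 changes. A two-sided exact permutation test of a single gene, 3 arrays against 3, cannot go below p = 0.1 and was not used. The number of arrays limits the precision, and the replicates are called biological in the sources without more detail. Promoter windows were read from a RefSeq table of GRCm38.p6. Tables and plots used Python 3.11.15, pandas 2.3.3, numpy 2.4.6 and matplotlib 3.10.9, and the fit was tested on simulated data.

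All 9 genes are named with Esrrb. From each other list up to 4 genes with the smallest adjusted p on day 5 were eligible, plus up to 2 called in the opposite direction, and for Pou5f1, Sox2 and Rnf125 the 3 genes nearest in course. Sall2 as a case of its own, Nanog and the comparison of steps were chosen after values were seen. The 9 genes and the lists were chosen with earlier results of these data known. Alternatives were the replicate number as a block, other scalings, a filter on dim genes, other probe set rules, trended robust variance, array weights, only the days compared, the test of the methods (a one-way analysis over days with Bonferroni adjustment and a total fold change over 2), and leaving out each array.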

Additional observations from a re-analysis of the deposited data

Results flagged for a closer look

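Zscan10 moved in opposite directions on days 1 and 5. Its 3 arrays of day 1 all lay above the 3 arrays of day 0, and its 3 arrays of day 5 all lay below them. Day 5 was below day 1 (log2 change -0.50, adjusted p = 1.1e-05 in limma), while the rise on day 1 alone did not pass the test (log2 change 0.16, adjusted p = 0.084). No cause was tested.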

How the results depend on the processing

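Over the 9 genes, 189 log2 changes were computed under alternatives for each comparison with day 0. Of these, 181, 181 and 186 stayed on their side of the threshold on days 1, 3 and 5, 4, 3 and 0 lost a call, 4, 5 and 3 gained a call, and 0 called changes reversed. The count of genes lower on day 1 was 2 with trended robust variance and 2 with array weights (Rnf125 added, adjusted p = 0.044 and 0.024), and 0 to 2 when each array was left out in turn. The count higher on day 1 was 1 with trended robust variance (Zscan10, adjusted p = 0.037). Leaving out an array gave 3 to 5 genes lower on day 3, 6 to 7 lower and 0 to 1 higher on day 5, and 2 to 5 called between days 3 and 1. Zscan10 between days 3 and 1 was also lost with quantile normalization added (adjusted p = 0.058). The test of the methods over the time course called 0 of the 9 genes and 420 genes in all (2.11 percent), where the limma F test called 6 of 9 and 45.6 percent. It also asks for a total fold change over 2, which only Rnf125 reached. Replicate numbers did not pair the arrays: the 18 correlations of same-numbered arrays after removing day means lay between -0.17 and 0.07. Among differently numbered arrays the highest was 0.18, for replicate 2 of day 0 and replicate 1 of day 3. A pairing under other numbers was not tested. With the replicate number as a block, 1, 4 and 6 genes were lower on days 1, 3 and 5, as without it, while between days 5 and 3 Sall1 lost its call (adjusted p = 0.057) and Rnf125 gained one (0.041). Scalings moved the median of all genes by at most 0.038 on the log2 scale. The cause of these differences was not tested. Of the 9 genes, Rnf125 had the largest standard error, 0.13.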

Other observations

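Of 28 POU, Sox and Sall relatives with a single-symbol probe set, 7 were higher and 3 lower on day 5, with a median log2 change of 0.01, where 17.4 percent of all genes were higher and 17.6 percent lower. Sox17 and Sox7, endoderm factors, had log2 changes of 0.80 (adjusted p = 9.1e-07) and 0.84 (adjusted p = 5.7e-06) on day 5, with 0.03 and 0.21 on day 3. Sox11, a neural SoxC factor, was higher on day 3 (log2 change 0.57, adjusted p = 0.0001) and on day 5 (0.76, adjusted p = 5.1e-06). Of the POU genes, Pou2f3 was lower on day 5 (log2 change -0.37, adjusted p = 0.0022), as was Pou4f1 (-0.28, adjusted p = 0.026). The day means of both lay below the array medians.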
